A study of Homo sapiens with 3 samples.

Results

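The 44 genes described here build the DNA replication machinery and supply its nucleotides. They were chosen by name, and a peak of H4K12la, the lactyl mark on lysine 12 of histone H4, was assigned to a gene when it overlapped the RefSeq gene span, extended by 5 kb on each side, by at least 1 bp. All 44 were found among 19970 protein-coding genes on chromosomes 1 to 22 and X. The assay was CUT&Tag. It uses an antibody to bring a transposase to marked chromatin, and the fragments it releases are sequenced. 3 peak lists were used, 1 from untreated 786-O cells (replicate 2) and 2 from untreated Caki-1 cells (replicates 1 and 2). Both are established human renal carcinoma lines, and whether separate cultures gave the Caki-1 replicates is not in the labels. With 1 library, 786-O has no replicate error. The lists held 62777, 60760 and 67839 peaks in that order, and 124, 118 and 147 of these fell in the extended spans of the 44 genes. Read depth is unknown, and a missing peak means only that none passed the authors' threshold.

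Eukaryotic replication begins at sites bound by the origin recognition complex, where CDC6 and CDT1 load the MCM2-7 helicase in G1 phase. CDC45 and the GINS complex then turn the helicase on, and polymerases held by the PCNA clamp copy both strands with nucleotides made by ribonucleotide reductase, thymidylate synthase and thymidine kinase. Many of these genes are transcribed at the entry into S phase under E2F transcription factors, and proliferating tumour cells transcribe them widely. Histone lysine lactylation is an acyl mark derived from lactate that has been found at promoters of active genes.

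Nearly all of the 44 genes carried H4K12la. In 786-O 42 genes had a peak in the extended span, 95.5% of them (95% exact binomial interval 84.5 to 99.4), against 76.2% of all protein-coding genes. Caki-1 replicate 1 had a peak at all 44 genes and replicate 2 at 43, against 73.7% and 76.1% of all protein-coding genes. In all 3 libraries together the count was 41 of 44 (93.2%), against 65.4%. Longer spans can hold more peaks, and the median span of the group was 35568 bp against 24190 bp over all genes. Among the 6369 protein-coding genes whose spans lay between the lower and upper quartile of the group, 73.8% had a peak in all 3 libraries, and 20 of the 22 group members in that length range did. Intervals cover counting error only.

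Most of the genes had a peak at a start site. The RefSeq promoter table gave start sites for 38 of the genes, and for MCM4, MCM5, GINS4, RPA2, RPA3 and RRM2B either annotated end of the gene was used. With a window of 1 kb on each side, 40 genes had a start-site peak in 786-O, 38 in Caki-1 replicate 1 and 42 in replicate 2. By the same rule 52.8%, 55.6% and 57.8% of all protein-coding genes had one. In all 3 libraries 36 of 44 genes (81.8%, interval 67.3 to 91.8) had a start-site peak, against 45.0% of all protein-coding genes and 53.3% of those of similar length. CDT1 was the 1 gene with a start-site peak in no library, where 35.0% of all genes had none. No gene of the group lacked a peak in the wider span in every library, against 15.2% of all genes.

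**Figure D1:**
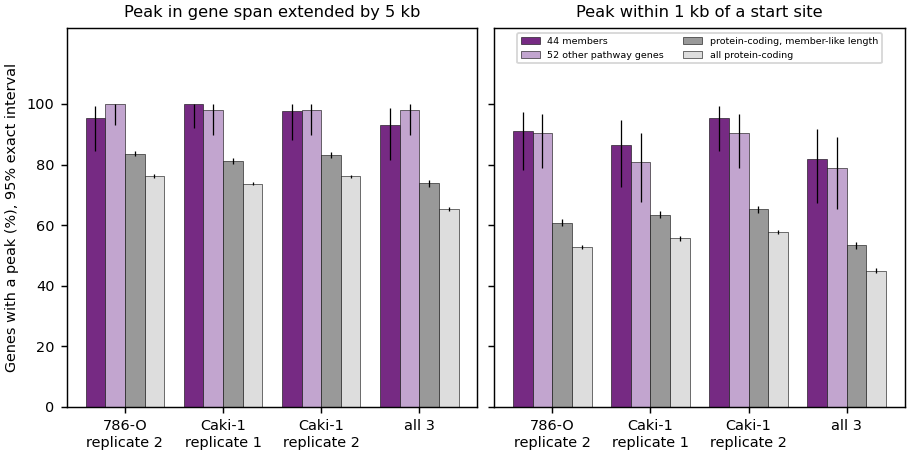
Share of genes with a peak (vertical axis, percent, from 0) by library, for the extended span (left) and the start-site window (right); bars are the 44 genes, 52 other genes of the pathway, protein-coding genes of similar length and all protein-coding genes, and error bars are 95% exact binomial intervals for counting error. The bars of the 44 genes lie between 81.8% and 100%, and those of all protein-coding genes between 45.0% and 76.2%.

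6 promoters show the range of the group, from a high peak to none. Each runs from 250 bases before to 50 bases after the start site, 5′ to 3′, from RefSeq on GRCh38.p14. Capitals mark matches, on either strand, to an E2F core word or to CCAAT, the box bound by the factor NF-Y. The core words searched were the word TTCCCGC, its variant TTGGCGC, then the word TTCGCGC and finally the word TTGCCGC. ORC6 had the highest rank of the group when each gene is taken at its lowest rank over the 3 lists, MCM6 holds the most E2F core matches of the 6, and PRIM1 had the lowest such rank among genes with a start-site peak in all 3 libraries. GINS1 had a start-site peak in 786-O alone, POLE in Caki-1 alone, and CDT1 in no library.
ORC6 (chr16:46689409-46689708, plus strand): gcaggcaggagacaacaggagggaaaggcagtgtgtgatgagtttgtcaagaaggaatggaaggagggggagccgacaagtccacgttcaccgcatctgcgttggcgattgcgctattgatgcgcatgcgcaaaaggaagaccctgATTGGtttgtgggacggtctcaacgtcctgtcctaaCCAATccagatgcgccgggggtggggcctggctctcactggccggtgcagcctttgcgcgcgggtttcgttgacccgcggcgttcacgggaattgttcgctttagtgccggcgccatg
MCM6 (chr2:135876394-135876693, minus strand): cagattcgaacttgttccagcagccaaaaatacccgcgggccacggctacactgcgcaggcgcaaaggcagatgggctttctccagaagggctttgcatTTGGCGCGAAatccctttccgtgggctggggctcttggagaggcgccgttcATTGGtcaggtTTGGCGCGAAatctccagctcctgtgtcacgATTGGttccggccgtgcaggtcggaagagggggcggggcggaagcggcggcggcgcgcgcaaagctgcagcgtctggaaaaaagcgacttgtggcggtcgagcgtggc
PRIM1 (chr12:56752274-56752573, minus strand): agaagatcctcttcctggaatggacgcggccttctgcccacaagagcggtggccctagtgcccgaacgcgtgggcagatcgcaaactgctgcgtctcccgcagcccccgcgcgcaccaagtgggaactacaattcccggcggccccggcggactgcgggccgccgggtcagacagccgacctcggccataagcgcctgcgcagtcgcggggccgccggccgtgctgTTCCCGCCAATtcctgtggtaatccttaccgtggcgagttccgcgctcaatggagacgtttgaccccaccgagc
GINS1 (chr20:25407423-25407722, plus strand): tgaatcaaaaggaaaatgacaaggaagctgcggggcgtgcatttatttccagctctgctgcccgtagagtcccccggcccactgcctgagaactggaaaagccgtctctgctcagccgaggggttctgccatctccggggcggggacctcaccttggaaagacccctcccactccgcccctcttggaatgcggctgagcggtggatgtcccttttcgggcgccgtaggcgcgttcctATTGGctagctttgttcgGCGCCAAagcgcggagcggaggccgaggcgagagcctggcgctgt
POLE (chr12:132687293-132687592, minus strand): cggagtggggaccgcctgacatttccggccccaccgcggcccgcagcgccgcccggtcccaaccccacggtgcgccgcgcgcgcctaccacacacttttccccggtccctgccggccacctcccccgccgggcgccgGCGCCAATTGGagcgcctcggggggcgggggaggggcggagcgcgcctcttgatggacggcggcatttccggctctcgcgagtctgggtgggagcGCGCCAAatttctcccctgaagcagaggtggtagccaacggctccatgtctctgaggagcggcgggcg
CDT1 (chr16:88803539-88803838, plus strand): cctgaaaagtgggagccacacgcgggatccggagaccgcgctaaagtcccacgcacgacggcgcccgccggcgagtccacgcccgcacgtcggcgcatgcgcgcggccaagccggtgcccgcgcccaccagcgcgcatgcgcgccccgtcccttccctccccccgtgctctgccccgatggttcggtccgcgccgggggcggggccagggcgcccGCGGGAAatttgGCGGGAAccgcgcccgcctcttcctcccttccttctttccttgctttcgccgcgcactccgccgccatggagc
All 300 bases of the ORC6 promoter lay inside a peak in each library, and 300, 262 and 262 bases of the MCM6 promoter did. At PRIM1 57, 100 and 136 bases were covered. At GINS1 230 bases were covered in 786-O and 0 in both Caki-1 libraries, and at POLE 0 bases were covered in 786-O and all 300 in both Caki-1 libraries.

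Of the 38 genes with a promoter in the table, 29 (76.3%) held an E2F core word, against 20.5% of 15812 protein-coding genes. Among the 32 of them with a start-site peak in all 3 libraries 23 (71.9%) held one, against 26.6% of all 7547 genes with such peaks. A CCAAT box was found in 24 of the 38 (63.2%) and 21 of the 32 (65.6%), against 42.1% and 45.7%. The word TTTGAA, the core of the cell cycle homology region, was found in 1 of 38 (2.63%) and 1 of 32 (3.1%), against 15.8% and 13.8%. Overlapping words count once each, so that each of the 2 TTGGCGCGAA runs of MCM6 gives 2 matches. The median number of CpG dinucleotides per 300 bases was 30.5 over the 38 genes, against 24 over all genes. It was 29.5 over the 32 genes, against 28 over all genes marked in all libraries. By role, all 4 of the MCM2-7 genes in the table, all 6 clamp and clamp loader genes and all 4 nucleotide supply genes in the table held an E2F core word, against 2 of the 6 origin recognition genes. The ORC6 promoter holds none and lay under a peak in each library, and the CDT1 promoter holds 2 and lay under no peak. These are single promoters, and whether the word goes with the mark was not tested.

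Peak heights are given as deposited, always in the order 786-O, Caki-1 replicate 1, Caki-1 replicate 2. The first and the second are a whole-number signal at the summit of the peak. The last is a score on another scale. Neither is stated to be scaled to depth, so heights are read within a list, as a percentile rank among all its peaks. List medians were 21, 21 and 48.

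The origin recognition complex, which marks where replication can begin, had a start-site peak at 6 of 6 genes in each library. ORC6 had heights of 164, 164 and 1051, with a lowest rank of 99.98 over the 3 lists. ORC4, whose product is an ATPase-fold subunit of the complex, had heights of 121, 118 and 479 in a peak of 1514, 1274 and 1479 bp, with a lowest rank of 99.8. ORC2 followed at heights of 66, 82 and 298, with a lowest rank of 96.8. ORC3 had heights of 122, 54 and 234, with a lowest rank of 95.1. ORC1, the largest subunit and itself an ATPase, had 85, 61 and 153, with a lowest rank of 90.8. ORC5 had heights of 35, 47 and 194, at ranks of 79.1, 92.4 and 94.5, the lowest of the 6 genes in 786-O and in replicate 1 of Caki-1 but above ORC1 in replicate 2. Its peak was wide all the same, at 1216, 1489 and 1536 bp.

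Several origin recognition genes also had peaks in their bodies. ORC4 had 7, 10 and 9 peaks in its extended span in the 3 lists, the start-site peak and any flank peak included. A body peak of ORC4 found in all libraries (chr2:147961799-147963468 in Caki-1 replicate 1) had heights of 28, 42 and 233. ORC2 had a body peak in all libraries (chr2:200944495-200945335 in 786-O) with heights of 46, 47 and 162. ORC3 had 6 peaks in 786-O, 4 of them in neither Caki-1 list, and their signals of 16 to 20 lay below the median of that list.

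The helicase loading genes ranked below 5 of the 6 origin recognition genes by their lowest rank over the lists. CDC6, the ATPase that joins the origin complex to load the helicase, had heights of 37, 33 and 98, at ranks of 81.5, 79.4 and 79.8. GMNN, the inhibitor of CDT1, had heights of 61, 36 and 175, and its peak of 1105, 1115 and 1015 bp spanned both of its annotated start sites. CDT1 was counted through a single peak per library that lay 2056, 2727 and 2498 bp beyond its far end, within 1 kb of a start site of APRT, a purine salvage gene. That peak had heights of 29, 45 and 107. The 786-O peak (chr16:88811314-88811975) overlapped that of Caki-1 replicate 2 and not that of replicate 1. The nearest peak to the CDT1 start site was 7525, 8196 and 7967 bp away.

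The 6 subunits of the MCM2-7 helicase, which unwinds DNA ahead of the fork, all had a peak in their spans in each library, but the heights spread widely. MCM4 was the highest of them in 786-O and Caki-1 replicate 1, and MCM6 in Caki-1 replicate 2. MCM4 had heights of 118, 80 and 225 at an annotated end of the gene that it shares with PRKDC, a DNA repair kinase. MCM6 had heights of 53, 68 and 278, with a lowest rank of 93.0. MCM3 had heights of 59, 25 and 139, at ranks of 95.1, 62.7 and 88.8.

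MCM2 had start-site heights of 39, 34 and 91. Both Caki-1 libraries had a further MCM2 body peak (chr3:127613026-127613424 in replicate 2), of height 22 and 121, which 786-O lacked. MCM7 had a single start-site peak of 1120 bp and height 52 in 786-O. Both Caki-1 libraries had 2 narrower ones in its place, of 294 and 569 bp in replicate 1, where the higher reached 36, and of 322 and 431 bp in replicate 2, both at 82. MCM5 had a peak at its lower annotated end in 786-O, of height 55 (rank 93.8). In Caki-1 replicate 2 it had one there of height 42, at the lower rank of 43.6. Caki-1 replicate 1 had none there, and its nearest peak to either end of MCM5 lay 8236 bp away. The Caki-1 replicates thus differed from each other at MCM5.

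Among the factors that turn the helicase on, CDC45 and MCM10 had a rank over 90 in each list. CDC45, a component of the active helicase, had heights of 93, 47 and 321, with ranks of 99.3, 92.4 and 98.8. MCM10, which helps to start unwinding, had 60, 52 and 262, with a lowest rank of 94.5. The GINS subunits ranked lower in at least 1 list. GINS2 had 43, 74 and 209 in peaks of only 374, 415 and 568 bp, and GINS4 had 42, 48 and 209 at an annotated end. GINS3 had 27, 36 and 133, with ranks of 65.6, 83.5 and 87.8. GINS1 had a start-site peak in 786-O (chr20:25407493-25408142, height 27, rank 65.6). In Caki-1 replicate 1 its only peak was a body peak of height 12 (rank 9.42), and in replicate 2 no peak lay closer than 16564 bp. A start-site peak in 786-O and neither Caki-1 library was seen at 1 of 44 genes of the group, near the 3.65% of all protein-coding genes. MCM8, a helicase of recombination repair, was the 1 gene of this role with a body peak above its start-site peak in every library. The body peak (chr20:5973210-5973798 in 786-O) had heights of 34, 26 and 79, against 33, 16 and 77 at the start site.

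None of the 6 polymerase and primase genes had a rank over 90 in all 3 lists. POLD1, the catalytic subunit of the lagging-strand polymerase delta, had the highest start-site peak of the 6 in both Caki-1 libraries, with heights of 36, 45 and 212. POLA1 and POLA2 are subunits of the primer-extending polymerase alpha. POLA1 had start-site heights of 35, 27 and 84. POLA2 had 31 in 786-O. In Caki-1 it had 110 in replicate 2, while in replicate 1 the nearest peak to its start site lay 7679 bp away. PRIM1, the catalytic primase subunit, had heights of 17, 14 and 55, at ranks of 31.3, 19.3 and 57.5. These were the lowest start-site ranks of the group in the 786-O list and also in Caki-1 replicate 1.

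POLE, the catalytic subunit of the leading-strand polymerase epsilon, had no peak in 786-O within 22807 bp of the gene. Caki-1 replicate 1 had 3 peaks in its extended span and replicate 2 had 5. At the start site, shared with the peroxisomal membrane gene PXMP2, the Caki-1 heights were 34 (chr12:132687115-132687783, rank 80.8) and 81 (rank 73.5). A body peak of POLE (chr12:132638605-132638939) had heights of 30 and 73 in the Caki-1 lists.

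PRIM2, the regulatory primase subunit, had the longest span of the group at 425311 bp and the most peaks in 786-O, with 11, of which 7 were in neither Caki-1 list. Its annotated span begins at 57221540 on chromosome 6, and a peak there (chr6:57221469-57222603 in 786-O) had heights of 57, 32 and 129. A start of RAB23, a small GTPase gene, lay within 1 kb of this peak in both Caki-1 libraries, and the 786-O peak overlapped both of theirs. The table places the start sites of PRIM2 far inside that end, where peaks within 1 kb had heights of 63, 26 and 77 at their highest. The peak at the span end was the stronger in both Caki-1 libraries and the weaker in 786-O.

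PCNA, the sliding clamp, had heights of 82, 44 and 206, with a lowest rank of 90.7. Its peak covered the start of CDS2, a lipid synthesis gene on the opposite strand. The clamp loader genes ranked lower than PCNA in 786-O at their start sites. RFC3 had 29, 21 and 134, RFC4 had 28, 31 and 107 and RFC5 had 24, 26 and 110. RFC1, the large subunit, had start-site values of only 25, 21 and 98, at ranks of 60.9, 50.1 and 79.8. Its strongest peaks lay in the gene body in all 3 libraries. The one found in both Caki-1 libraries was 1716 and 2200 bp wide (chr4:39353630-39355829 in replicate 2), with heights of 48 and 144. In 786-O 2 peaks fell there, with heights of 36 and 27, and the strongest of RFC1 lay elsewhere in the body (chr4:39319711-39320312, height 51).

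RFC2 had no peak in 786-O within 18123 bp of the gene. In Caki-1 it had 1 peak per library at its start site, with heights of 26 (rank 65.3) and 30 (rank 24.6). POLE and RFC2 were the 2 genes of 44 (4.55%) with a peak in both Caki-1 libraries and none in 786-O, near the 4.93% of all protein-coding genes with that pattern in the extended span. At start sites the same 2 genes showed the pattern, against 7.06% of all genes. The reverse, a peak in 786-O and none in either Caki-1 library, was seen at 0 of 44 extended spans (exact interval up to 8.04%), against 5.42% of all genes. The counts are not symmetric, since 786-O is represented by 1 library.

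The subunits of RPA, which coats single-stranded DNA, all had their strongest peak above the median of each list. RPA1 had heights of 65, 53 and 171, with a lowest rank of 92.8. RPA2 had 37, 40 and 153 at its higher annotated end. RPA3 had a strong peak in all libraries (chr7:7640220-7641511 in 786-O), with heights of 82, 74 and 274, at ranks of 98.7, 98.6 and 98.0. It lay 3702, 3680 and 3552 bp inside the lower end of the 82090 bp span, within 1 kb of a start of UMAD1, and so outside the start-site window as defined. Caki-1 replicate 2 alone had a start-site peak of RPA3 (chr7:7719420-7719805), 813 bp from the higher annotated end, with a score of 95 (rank 79.0). FEN1, the flap nuclease of Okazaki fragments, had heights of 35, 35 and 37, which stood at ranks of 79.1, 82.2 and 36.0 of the 3 lists. LIG1, the ligase that seals those fragments, had 41, 45 and 189, with a lowest rank of 85.5.

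Nucleotide supply was marked at all 5 genes. RRM2B, the ribonucleotide reductase subunit induced by p53, had heights of 188, 147 and 682 at its higher annotated end, second in the group to ORC6 by lowest rank. The other ribonucleotide reductase subunits were far lower. RRM1, the large subunit, had 39, 46 and 105. RRM2, its small partner, had a narrow start-site peak of 329 and 385 bp in 786-O and Caki-1 replicate 2, at heights of 35 and 143. Caki-1 replicate 1 lacked that peak. Its nearest peak, 1878 bp from an RRM2 start site, was an upstream peak present in all 3 libraries, with heights of 33, 34 and 61. TYMS, which makes thymidylate, had heights of 59, 38 and 154. In 786-O that peak began 247 bp downstream of the TYMS start site, and in both Caki-1 libraries it covered the start site.

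TK1, thymidine kinase, had more peaks away from its start in the Caki-1 lists. The start-site peak had heights of 44, 60 and 130, and it was the only TK1 peak of 786-O. Caki-1 replicates 1 and 2 had 4 and 5 peaks. 3 of those of replicate 1 were also in replicate 2 and not in 786-O. The highest lay in the gene body (chr17:78179176-78180013), with heights of 77 (rank 98.8) and 135 (rank 88.2), above the start-site peak in both. Of the others 1 had heights of 57 and 76, and 1 had 56 and 96. With 1 library of 786-O no difference between the lines could be tested, for TK1 or any other gene.

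**Figure D2:**
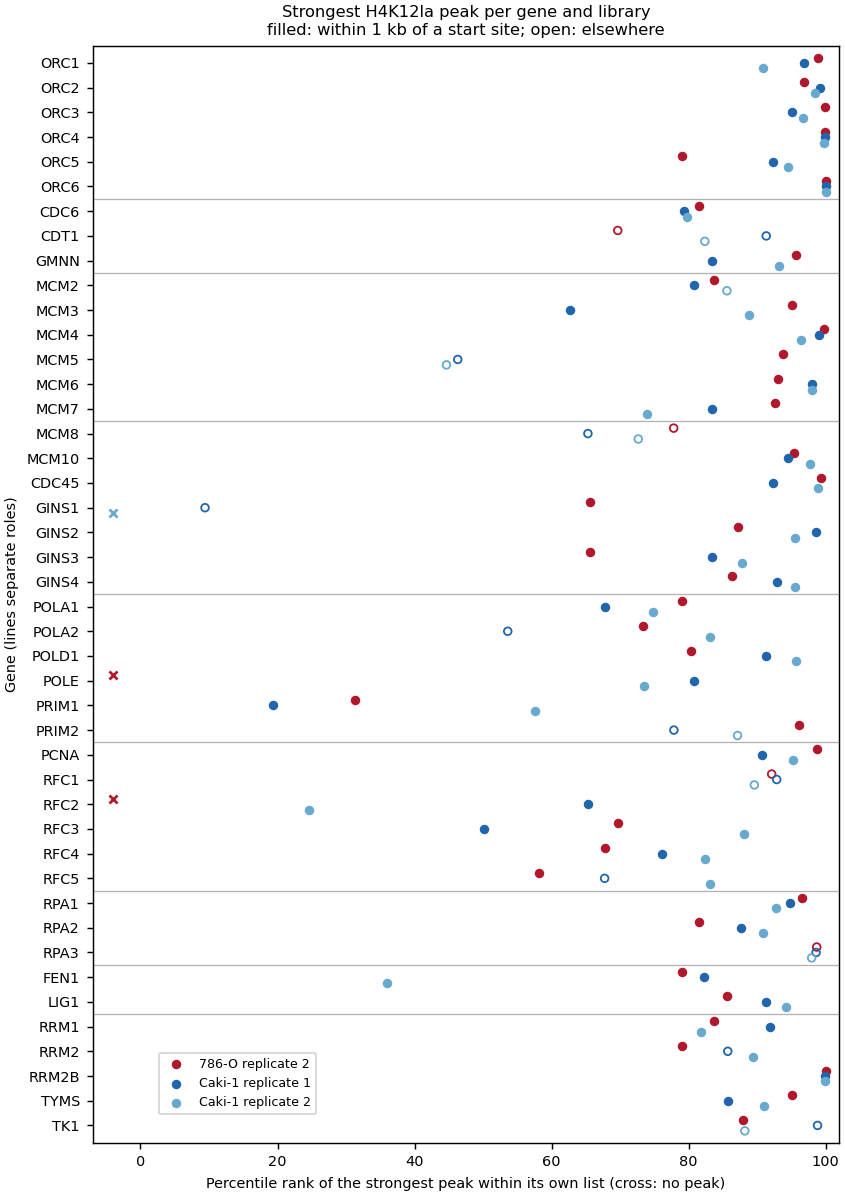
Percentile rank of the strongest peak of each gene within its own list (horizontal axis), with genes grouped by role and 1 point per library; filled points lie within 1 kb of a start site, open points elsewhere, and crosses mark genes without a peak. ORC6, RRM2B and ORC4 lie at 99.8 or higher in every list, and the crosses are POLE and RFC2 in 786-O and GINS1 in Caki-1 replicate 2.

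The order of the genes was broadly kept between lists. Over the 36 genes with a start-site peak in all 3 libraries, Spearman's rho of the ranks was 0.82 between the Caki-1 replicates, and 0.73 and 0.69 between 786-O and replicates 1 and 2. The ranks of Caki-1 replicate 2 are of a score and those of the other lists of a summit signal. The rho values therefore do not set replicates against lines on like measures. The points are genes, which are not replicates, and the lists share their loci and base composition. 12 genes had a rank over 90 at the start site in each list, among them 5 of the 6 origin recognition genes. The share of all protein-coding genes with such a rank in each list was not counted, so these counts only describe the group.

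The median ranks of the group's start-site peaks were 86.8, 89.2 and 89.1, against 85.5, 82.2 and 84.5 over all protein-coding genes with a start-site peak. Ranks over 90 were reached by 18 of 40, 19 of 38 and 20 of 42 genes, or 45.0%, 50% and 47.6%, against 38.8%, 35.2% and 37.9% of all genes with such a peak. Median widths were 847.5, 671.5 and 831 bp, against 746, 763 and 869 bp, so that the group was wider in 786-O and narrower in both Caki-1 libraries. Genes without a start-site peak have no part in these values.

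**Figure D3:**
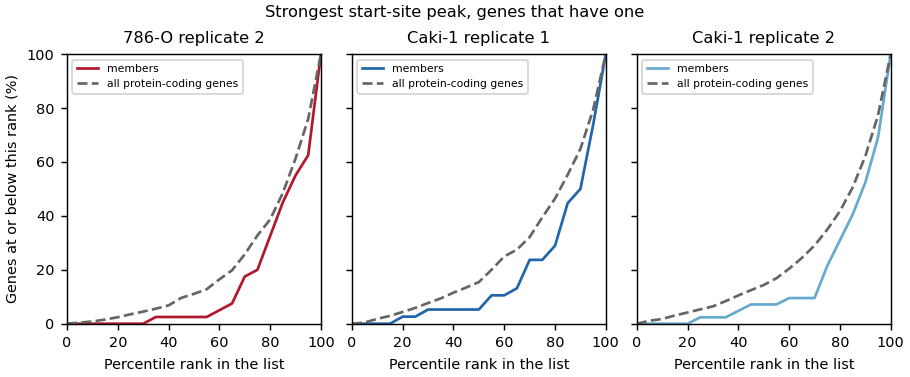
Cumulative share of genes (vertical axis, percent) whose strongest start-site peak lies at or below a percentile rank of its list (horizontal axis), for the group (solid) and all protein-coding genes (dashed), in 1 panel per library. At a rank of 50 the curves stand at 2.50% against 11.1% in 786-O, 5.26% against 15.4% in Caki-1 replicate 1 and 7.14% against 14.4% in replicate 2.

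The strongest start-site peaks mostly covered the start sites. The strongest start-site peak covered the nearest start site of the gene at 33 of 35 genes with a tabled start in 786-O, 32 of 34 in Caki-1 replicate 1 and 35 of 36 in replicate 2. That is 94.3%, 94.1% and 97.2%, against 80.9%, 82.6% and 84.0% of all genes with a tabled start and a start-site peak. The exceptions were PRIM2 and TYMS in 786-O, PRIM2 and MCM7 in Caki-1 replicate 1, and MCM7 in replicate 2. The median peak reached from 336 bp before to 469 bp after the start in 786-O and from 415 bp before to 412.5 bp after it in Caki-1 replicate 2. In Caki-1 replicate 1 it ended 267 bp after the start, where the median over all genes was 383 bp.

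Summits lay mostly upstream. The median summit was 54 bp before the start site in 786-O and 69 bp before it in Caki-1 replicate 1, against 61 and 60 bp over all genes. A summit downstream of the start was found at 9 of 35 genes (25.7%) and 4 of 34 (11.8%), against 33.6% and 33.7% of all genes. GINS3 had its summit 377 bp downstream in both of these libraries, and TYMS 620 bp downstream in both. Positions of summits could not be read from the list of Caki-1 replicate 2.

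**Figure D4:**
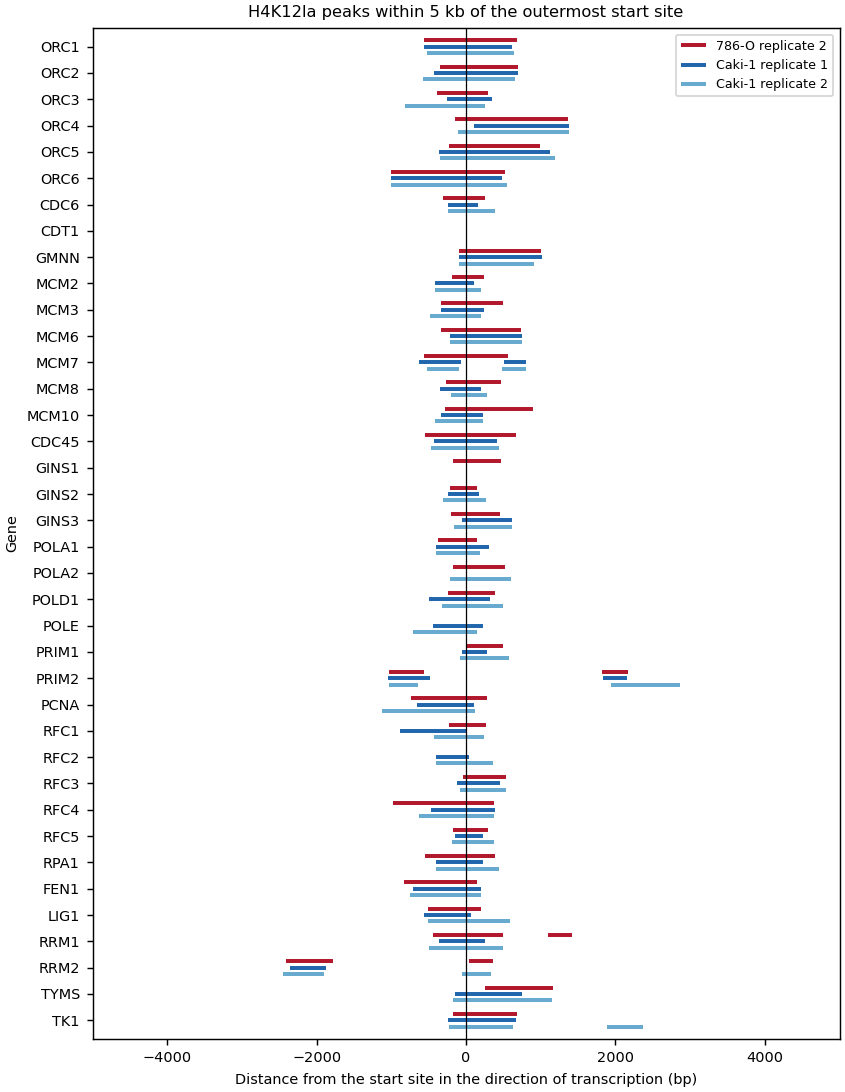
Peaks within 5 kb of the outermost start site of each of the 38 genes with a tabled start (horizontal axis, bp in the direction of transcription), as 1 bar per peak and library. Most bars cover the start site, the bars of ORC6 reach equally far upstream in the 3 libraries, and the row of CDT1 is empty.

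Many of these start-site peaks also reach a neighbouring gene. In 786-O 13 of the 35 start-site peaks (37.1%) also covered an annotated start of another protein-coding gene, against 20.7% over all genes with a tabled start and a peak. In Caki-1 the counts were 14 of 34 (41.2%) and 14 of 36 (38.9%), against 19.6% and 19.9%. A neighbour without a tabled start was counted at either annotated end, and strand was not considered. The shared peaks cannot be assigned to 1 of the partners. The partners were PRPF38A at ORC1, RARS2 at ORC3, MBD5 at ORC4, VPS35 at ORC6, TPRA1 at MCM2, AP4M1 at MCM7, TRMT6 at MCM8, UFD1 at CDC45, CDS2 at PCNA, SMYD4 at RPA1, TMEM258 at FEN1, ZSWIM9 at LIG1 and AFMID at TK1. PXMP2 at POLE was the further partner in Caki-1. 4 of the 6 origin recognition genes were in such pairs. ORC2 and ORC5 were not, and their lowest ranks were 96.8 and 79.1. Whether pairing goes with rank was not tested.

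Away from start sites the peaks of the group had lower median ranks. In 786-O 71 of the 124 peaks lay in gene bodies, 11 in the flanks and 42 at start sites, with median ranks of 40.3, 58.1 and 87.6. In Caki-1 replicate 1 the median ranks were 42.3, 75.5 and 85.2 over 68, 8 and 42 peaks, and in replicate 2 they were 37.3, 46.7 and 88.4 over 87, 14 and 46 peaks. Peaks per 100 kb of extended span numbered 4.35, 4.13 and 5.15, against 3.46, 3.40 and 3.79 over all protein-coding genes. These rates pool all spans and were not matched for length. The longest span was 425311 bp in the group and 2473620 bp over all genes. PRIM2 held the most in 786-O, with 11, 6 and 7 peaks in the 3 lists. ORC4 held the most in both Caki-1 libraries, and in 786-O it had 7, as did 4 other genes. RPA3 had 7, 4 and 8, POLA1 had 7, 4 and 6, RFC1 had 7, 6 and 5, and ORC5 had 7, 3 and 5.

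Start-site peaks of the group mostly recurred in the other lists. Of those of 786-O, 90.5% (38 of 42) overlapped a peak of Caki-1 replicate 1 and 97.6% (41 of 42) one of replicate 2, against 83.2% and 85.3% of all start-site peaks. Between the Caki-1 replicates the shares were 100% (42 of 42) and 91.3% (42 of 46), against 90.5% and 86.4%. Elsewhere in the spans 43.9% and 42.7% of the 82 peaks of 786-O were shared with Caki-1, against 37.1% and 40.6% of all such peaks. From the Caki-1 side 46.1% and 32.7% were shared with 786-O, against 39.0% and 37.5% of all such peaks. Between the replicates 63.2% and 47.5% were shared, against 60.9% and 53.4%, so that both values of replicate 2 lay below those of all peaks. Each interval of the group's peaks elsewhere contained the value over all such peaks.

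**Figure D5:**
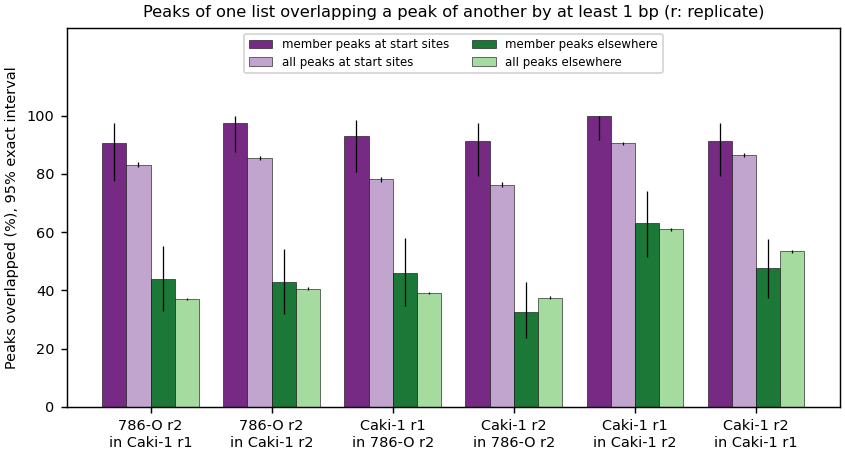
Share of peaks of 1 list that overlap a peak of another by at least 1 bp (vertical axis, percent, from 0), for the group and for all peaks, at start sites and elsewhere; error bars are 95% exact binomial intervals for counting error. Start-site bars of the group lie between 90.5% and 100%, and its other bars between 32.7% and 63.2%.

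Over the whole group 85 of the 124 peaks of 786-O (68.5%, interval 59.6 to 76.6) overlapped a peak of at least 1 Caki-1 library, against 54.6% of all peaks of that list. Of the 118 of Caki-1 replicate 1, 90 (76.3%, interval 67.6 to 83.6) overlapped replicate 2, against 66.2%. The 2 intervals overlap, and the first share counts a match in either of 2 lists. Start-site peaks made up 42 of the 124 group peaks of 786-O but 10155 of all 62777, so these shares mix unlike sets. Both Caki-1 lists contained a match for 65 of the 786-O peaks (52.4%), against 37.7% of all 786-O peaks. Away from start sites 27 of 82 had such a match (32.9%, interval 22.9 to 44.2), near the 29.6% of all such peaks. 39 peaks of 786-O (31.5%) were in neither Caki-1 list, at 17 genes, against 45.4% of all. 38 of these were among the 82 away from start sites (46.3%, interval 35.3 to 57.7), near the 52% of all such peaks. PRIM2 held 7 of them and POLA1 6, all 6 at signals of 12 to 18. In Caki-1 26 peaks of replicate 1 (22.0%, interval 14.9 to 30.6) were in replicate 2 and not in 786-O, at 16 genes, near the 27.2% of all peaks of replicate 1. 23 of them were among the 76 away from start sites (30.3%), near the 29.7% of all such peaks. ORC4 held 4, and POLE and TK1 held 3 each.

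52 further genes of replication and nucleotide synthesis gave similar counts. In 786-O all 52 had a peak in the extended span, and 51 had one in each Caki-1 library. The shares of all protein-coding genes were 76.2%, 73.7% and 76.1%. Start-site peaks were found at 47, 42 and 47 of them, against 52.8%, 55.6% and 57.8% of all protein-coding genes. In all 3 libraries 41 (78.8%) had one, against 45.0%. Median ranks of these start-site peaks were 91.0, 90.6 and 90.2, above the 86.8, 89.2 and 89.1 of the 44 genes. The strongest in 786-O was the peak shared by the divergent pair PPAT and PAICS, enzymes of purine synthesis, with heights of 144, 94 and 277. Against 35.0% of all protein-coding genes, 4 of the 52 (7.69%) had no start-site peak in any library. These were RECQL4, a helicase of replication initiation, CHAF1A, a histone chaperone subunit, UHRF1, which maintains DNA methylation, and CHTF18, part of an alternative clamp loader. An E2F core word was found in 18 of the 42 with a promoter in the table (42.9%), a lower share than the 76.3% of the 44-gene group, with no test made of the difference.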

How the data were processed

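H4K12la CUT&Tag peak lists of 3 libraries were used as deposited, 1 per library. Tools listed in the submitters' processing notes are fastp (0.19.6), deepTools and Bowtie2, and the genome is listed as GRCh38 and as hg38; their roles are not stated. The peak caller, its threshold and any control were not given in the sources used here. The lists have no header. The last column was read from the values as a deposited signal at the summit (column 5, inside the peak in 100% of lines) in 786-O and Caki-1 replicate 1. In Caki-1 replicate 2 column 5 lay inside the peak in 9.65% of lines, and the last column was used as a deposited score. A further deposited column holds the peak width in bp.

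Gene spans and promoters came from RefSeq tables on GRCh38.p14, and coordinates count from 1. Ranks are percentiles within a list, with ties at their mean. Python 3.11.15, pandas 2.3.3 and scipy 1.17.1 were used, and overlap counting was tested on simulated data. The members and lists were chosen with earlier results of these data known. Every member has its values printed. Genes outside the group were named where they share a member's peak, lack any start-site peak among the 52 further pathway genes, or, chosen after their values were seen, for the highest peak there. No test was made, since 1 library stands against 2. For 786-O only replicate 2 was used.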

Additional observations from a re-analysis of the deposited data

How the results depend on the processing

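Of 55 recomputed values 53 stayed within 1.5 times the reported count or within the 95% interval of the reported share or median rank. With 44 genes in the group no count could rise beyond that mark, so for counts only a large fall could register. The shares over all protein-coding genes were not recomputed, so the difference from all genes was not examined under the alternatives. Counts of genes with a peak in the extended span in all 3 libraries ran from 38 with only peaks above the median of each list to 43 without 786-O, and start-site counts from 33 to 39 over all alternatives, among them windows of 500 bp and 3 kb and both annotated ends. Leaving out a library gave 41 to 43 genes for the span and 36 to 39 for the start site, and 59.7% to 61.3% of 786-O peaks shared with a single Caki-1 library. The exceptions were the shares of overlapping peaks with only peaks above the median of each list, which were 80% for 786-O peaks in Caki-1 and 85.1% between the Caki-1 replicates; weaker peaks were left out by construction. No paired analysis was possible because the lines share 1 replicate number and no test was made. The unknown depth limits every absent peak, and a peak under the threshold of 1 list may be just above it in another.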
